A study of Mus musculus with 10 samples.

Results

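The proteasome genes were taken as every probe set of the array whose annotation gives a single symbol starting with Psma, Psmb, Psmc, Psmd, Psme, Psmf or Psmg. This gave 85 probe sets of 22626, for 48 gene symbols of the 12393 on the array. Of these, 46 encode subunits, activators, an inhibitor or assembly chaperones of the proteasome. The other 2 share the prefix only: Psmc3ip, a meiotic recombination gene, and Psme3ip1, whose product binds the Psme3 protein. The study set 8-week-old against 1-week-old C57BL/6 mice with 1 array of brain RNA per sample, 10 in all: at 8 weeks, 2 labelled female and 2 labelled male, and at 1 week, 3 labelled female and 3 labelled male. All titles give B6 except that of replicate 1 labelled female at 8 weeks. C57BL/6 is an inbred laboratory strain, and the labels give no treatment or genetic change for any group. They number the brains in each group without saying that each came from a separate animal, so p-values measure the spread between these samples.

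The proteasome degrades proteins tagged with ubiquitin. Its core is a barrel of stacked rings, in which alpha subunits gate the entry and beta subunits form the chamber, some of them cutting the substrate. A regulatory cap sits on the barrel, with a base that holds a ring of ATPases, which unfold the substrate, and a lid that removes ubiquitin. Interferon can replace the cutting beta subunits by those of the immunoproteasome and bring in other activators. In neurons the proteasome turns over synaptic and growth proteins.

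Trimmed means of the deposited intensities ran from 255 to 318 at 8 weeks and from 138 to 236 at 1 week, so overall brightness and age cannot be told apart, and the direction of many changes depends on the scaling. Values are quantile-normalized intensities unless the deposited scale is named. Sex-linked transcripts (Xist and Eif2s3y) opposed the sex label in 4 of the 6 arrays at 1 week and gave a mixed pattern in 1 more. Arrays are therefore named by label. A fit of age alone without those 4 kept only replicate 3 labelled female, the mixed array, and replicate 1 labelled male at 1 week. In it 8 members were lower at 8 weeks in place of 14, and Psma3, Psmb5, Psmd6, Psmd9, Psme4 and Psmg3 lost the call. The labels and the smaller number of arrays cannot be told apart in these losses. Calls also dropped among all genes, to 1155 of 8143 lower in place of 1957 of 8148. Neuronal markers, for the labelled tissue, passed the filter on dim probe sets in 7 of 7 genes, with a summed intensity of 15480 to 16540 at 8 weeks and 13290 to 15130 at 1 week. Oligodendrocyte markers rose in 3 of 4 measured members (21.9% of all genes). Their summed intensity over 5 was 11640 to 15540 at 8 weeks and 2103 to 9990 at 1 week. RNA came from tissue, so fewer cells of a type and less RNA per cell cannot be told apart.

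Age was the main comparison, tested with limma over all 13576 probe sets past the filter, with changes given as log2 at 8 weeks minus 1 week. A gene is represented by its brightest probe set and counted as passing at a Benjamini-Hochberg adjusted p under 0.05. The core was lower at 8 weeks on the normalized scale in 7 of 14 measured subunits, and the cap in 2 of 17, although these counts depended on the scaling. With spike-in scaling 2 core subunits were lower and 1 higher, and 1 cap subunit lower and 4 higher. On the deposited scale, without normalization, 0 core subunits were lower and 7 higher, and 0 cap subunits lower and 14 higher. All genes shifted too: 694 of 8150 were lower and 2481 higher with spike-in scaling. Without normalization 365 of 8148 genes were lower and 5260 higher. The activator genes went in opposite directions: Psme1 fell the most of the 44 measured members and Psme3 rose. Psmc5, an ATPase of the cap, was the steepest rise. Of the 44 symbols past the filter 14 were lower (31.8%) and 2 higher (4.55%), against 24.0% lower and 21.9% higher among all 8148 genes tested. Their median change was -0.13, and -0.02 for all genes. In 15 members every array at 8 weeks lay below every array at 1 week, and in 2 above, against 18.4% and 17.5% of all genes. The 4 symbols under the filter were Psma8, Psmb8, Psmb9 and Psmc3ip.

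**Figure D1:**
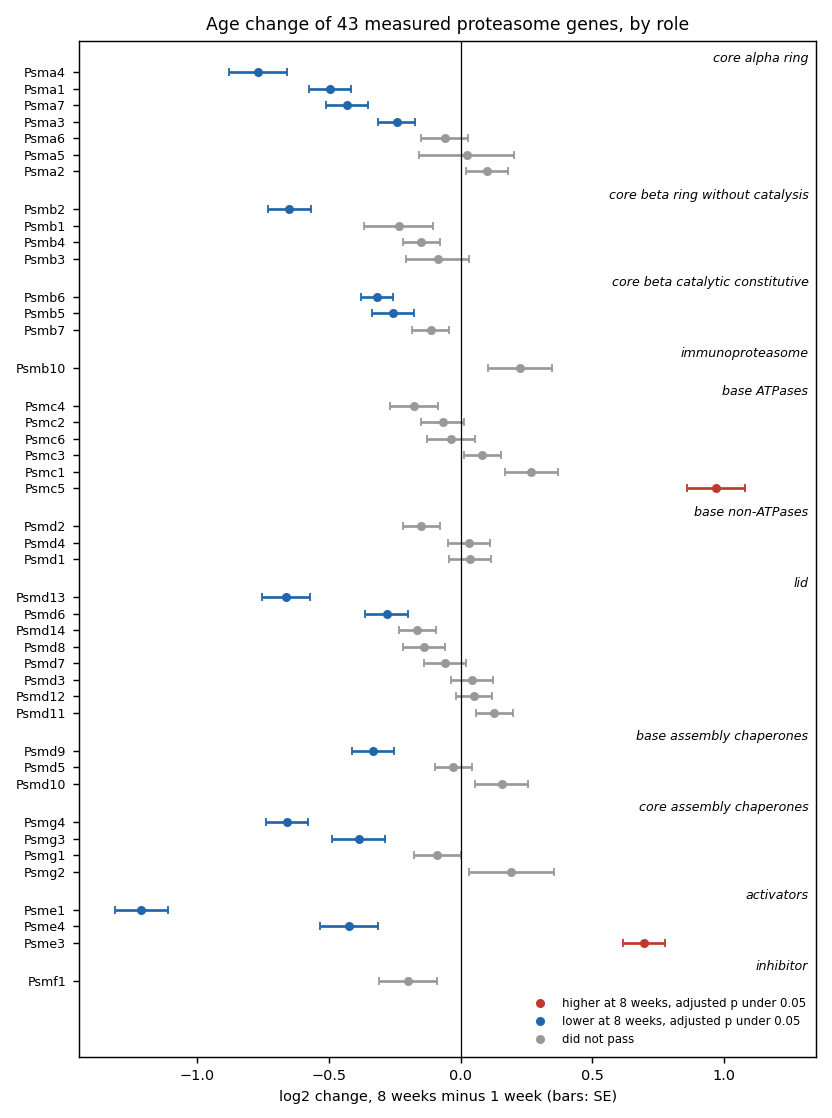
Log2 change (8 weeks minus 1 week, x axis) of the 43 measured genes with a proteasome role, one row per gene, grouped by role. Points are limma estimates on the quantile-normalized scale and bars their SE, coloured by call. Psme1 lies farthest left at -1.21 and Psmc5 farthest right at 0.97, and without normalization Psme1 alone of the 44 measured symbols passed as lower.

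In the core, on the normalized scale, 7 of 14 measured subunits fell and 0 rose, a share of 50% against the 24.0% of all genes. On the deposited scale 0 fell and 7 rose, where 5260 of all 8148 genes rose. Among the 5729 genes at or above the 60th percentile of brightness, the share lower was 27.1%. The alpha ring fell in 4 of 7 measured members. Psma4, an alpha ring subunit, read 728, 843, 778 and 703 at 8 weeks, and from 1062 through a median of 1344 to 1543 at 1 week. No array at 8 weeks reached the lowest at 1 week, and the change was -0.77 ± 0.11 (SE, limma adjusted p = 3.00e-04).

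Psma1, Psma7 and Psma3, also of the alpha ring, did not overlap between ages either. Psma1 averaged 389.6 ± 11.7 at 8 weeks and 561 ± 40.4 at 1 week (SD, n = 4 and 6), a change of -0.50 ± 0.08. Psma7 changed by -0.43 ± 0.08 and was also lower in its other probe set past the filter, by -0.21 ± 0.07. The change of Psma3, -0.24 ± 0.07, was small and rested on single arrays: without replicate 2 labelled female at 8 weeks its limma adjusted p was 0.0668, and without replicate 2 labelled male at 8 weeks 0.081.

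Psma2, Psma5 and Psma6 did not pass. Psma5 averaged 817 ± 109 at 8 weeks and 817 ± 183 at 1 week, with a wide range at 1 week, 546 to 1025. Psma6 read 903 ± 34.9 and 946 ± 82.2 in its brightest probe set. Another of its probe sets was lower at 8 weeks, at -0.22 ± 0.08 (limma adjusted p = 0.0401), so the probe sets of this gene disagree on the call. Psma8, the testis form of an alpha subunit, was under the filter, at 20.7 ± 3.15 at 8 weeks and 13.3 ± 8.42 at 1 week.

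Among beta subunits that do not cut, Psmb2 alone of 4 passed. It read 541, 629.9, 639.6 and 598 at 8 weeks, against 888 to 1031 at 1 week with a median of 949.8. All arrays at 8 weeks lay below those at 1 week, with a change of -0.65 ± 0.08 (limma adjusted p = 1.15e-04). Psmb1, Psmb3 and Psmb4 had changes of -0.24, -0.09 and -0.15 and did not pass.

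Of the 3 constitutive cutting subunits, Psmb6 and Psmb5 fell and Psmb7 did not pass. Psmb6, the caspase-like subunit, read 843, 854, 936 and 902 at 8 weeks and 1058 to 1143 at 1 week, with a median of 1114. The ages did not overlap, and the change was -0.32 ± 0.06 (limma adjusted p = 0.00257). Psmb5, the chymotrypsin-like subunit and the main target of proteasome inhibitor drugs, read 1143, 1278, 1227 and 1193 at 8 weeks. At 1 week it ran from 1292 through a median of 1447 to 1715, just above the highest array at 8 weeks. Its change of -0.26 ± 0.08 lost the call without replicate 1 labelled female at 8 weeks (limma adjusted p = 0.0785) and without replicate 2 labelled male at 8 weeks (0.0599). Psmb7, the trypsin-like subunit, averaged 2868 ± 77.9 at 8 weeks and 3109 ± 186 at 1 week (-0.11 ± 0.07).

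**Figure D2:**
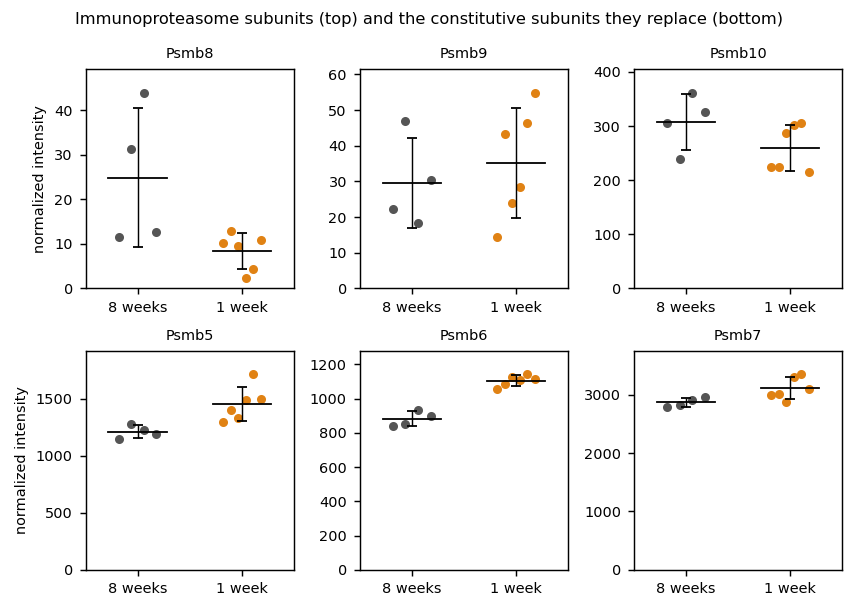
Quantile-normalized intensity (y axis, linear, from 0) on each array at 8 weeks (4 points, left) and 1 week (6 points, right) for the immunoproteasome subunits Psmb8, Psmb9 and Psmb10 and the constitutive Psmb5, Psmb6 and Psmb7. Lines and bars are the mean and SD. Psmb5 and Psmb6 do not overlap between ages, though on the deposited scale their changes turned to 0.28 and 0.23, while the other 4 overlap; Psmb8 and Psmb9 stay under 60.

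The immunoproteasome subunits were faint or little changed. Psmb8, which takes the place of Psmb5, read 11.5, 31.2, 43.9 and 12.7 at 8 weeks, and 2.34 to 12.9 at 1 week with a median of 9.82. Its 2 higher arrays, replicate 2 labelled female and replicate 1 labelled male, stood above every array at 1 week, and the other 2 overlapped them. Psmb9, which takes the place of Psmb6, read 22.2, 46.9, 18.4 and 30.5 at 8 weeks and 14.5 to 54.9 at 1 week, with a median of 35.9, and the ages overlapped throughout. With no filter, limma gave changes of 0.55 ± 0.19 for Psmb8 (adjusted p = 0.0576) and -0.13 ± 0.20 for Psmb9 (adjusted p = 0.681). Psmb10, which takes the place of Psmb7, read 306, 238, 362 and 326 at 8 weeks and 215 to 305 at 1 week, with a median of 256. It overlapped and did not pass (0.23 ± 0.12, limma adjusted p = 0.162).

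Each immunoproteasome subunit was then set against the constitutive one it replaces, as the log2 difference on each array, which shows unequal change and not relative level. For Psmb8 over Psmb5 the difference was -4.71 ± 0.41 at 8 weeks and -5.51 ± 0.30 at 1 week (SD, n = 4 and 6), 0.80 higher at 8 weeks. Its size follows the pseudocount, since Psmb8 read below the 24.2 added before the log on 8 of 10 arrays: it was 1.67 with a pseudocount of 1 and 0.44 with 100, and 0.39 on the deposited scale. All 3 pairs were tested with two-sided exact permutation tests, adjusted over the 3. For Psmb8 over Psmb5 the exact permutation p was 0.00476, the lowest that 210 arrangements allow (adjusted p = 0.0143). With an array left out its adjusted p ran from 0.0238 to 0.0714. As Psmb8 lies near background, no conclusion is drawn from this test. Psmb10 over Psmb7 was -3.14 ± 0.21 at 8 weeks and -3.48 ± 0.19 at 1 week, 0.34 higher at 8 weeks, and just missed the threshold (exact permutation p = 0.0333, adjusted p = 0.05). That adjustment counts the pairs of Psmb8 and Psmb9, both under the filter, and the call depends on counting them. For Psmb9 over Psmb6 the difference was 0.19 (exact permutation p = 0.462).

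Genes of interferon response and antigen presentation, listed as the setting of the immunoproteasome, rose in 2 of 6 measured members and 0 fell. Among all genes 21.9% rose and 24.0% fell. H2-D1, a class I histocompatibility gene, averaged 820.0 ± 159 at 8 weeks and 531 ± 65.9 at 1 week (0.59 ± 0.14). B2m, the light chain of class I molecules, averaged 1303 ± 124 at 8 weeks and 909 ± 118 at 1 week (0.51 ± 0.11). The filter left out Irf8, Irf9, Tap2, Ifit1 and Ifit3, which were not tested. Among these, Tap2, a peptide transporter gene, read 82.4 ± 6.37 at 8 weeks against 51.0 ± 8.25 at 1 week. The interferon-induced Ifit3 read 112 ± 26.3 at 8 weeks against 38.6 ± 11.1 at 1 week, and neither overlapped between ages. Irf8, Irf9 and Ifit1 did overlap, and Irf9 alone averaged lower at 8 weeks, at 60.8 ± 11.6 against 71.3 ± 10.7. For microglia, brain immune cells that can make these subunits, 7 of 9 measured markers were higher (21.9% of all genes) and 0 lower. Their summed intensity over 13 markers was 3727 to 4891 at 8 weeks and 2886 to 3401 at 1 week. Of the defining markers, Aif1, Itgam, Trem2 and Ptprc were under the filter, and none was at 0. The part of microglia in the values of Psmb8 and Psmb10 was not tested.

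The cap differed from the core in its counts: 1 of 17 measured subunits rose, 2 fell and 14 did not pass, a share lower of 11.8% against 24.0% of all genes. The median change was -0.24 in the core and -0.04 in the cap. The core median was below the cap median in 25 of 25 alternative settings, by 0.16 to 0.31, whereas its own sign turned on the deposited scale, where the core median was 0.31, the cap median 0.52 and the median of all genes 0.47. Averaged over the 14 core genes, centred log2 values ran from -0.19 to -0.13 at 8 weeks and from 0.06 to 0.15 at 1 week. Over the 17 cap genes they ran from -0.10 to 0.06 at 8 weeks and from -0.05 to 0.06 at 1 week. The ages were apart in the core and overlapped in the cap, as a description of genes that do not vary independently.

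**Figure D3:**
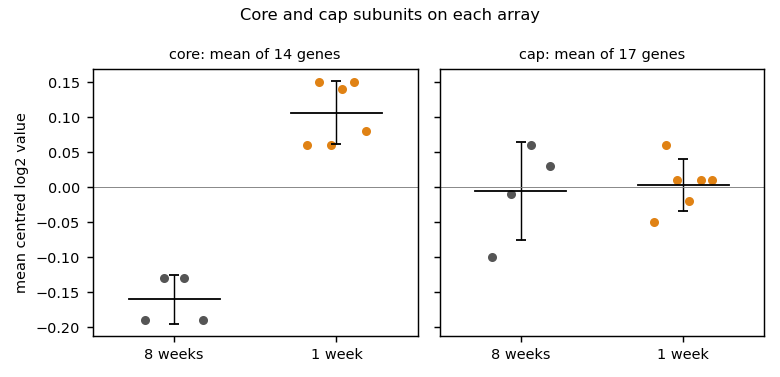
Mean centred log2 value (y axis) over the 14 measured core genes (left panel) and 17 measured cap genes (right panel) on each array, for 4 arrays at 8 weeks and 6 at 1 week on the quantile-normalized scale. Lines and bars are the mean and SD over arrays. Core values lie between -0.19 and -0.13 at 8 weeks and between 0.06 and 0.15 at 1 week, and cap values overlap; the core median turned above 0 on the deposited scale.

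**Figure D4:**
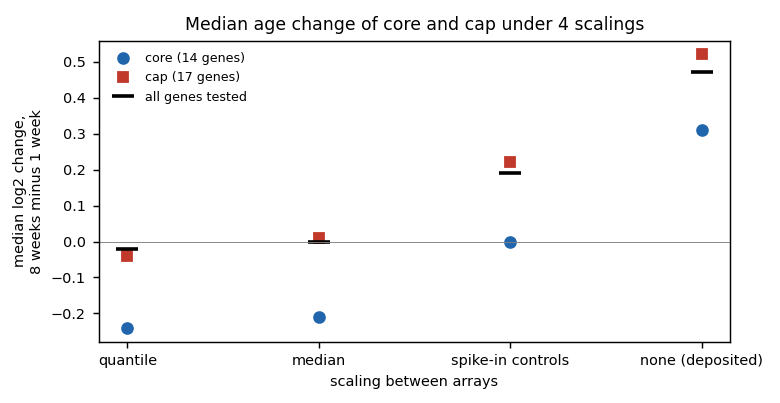
Median log2 change (8 weeks minus 1 week, y axis) of the core (circles), the cap (squares) and all genes tested (bars) under 4 ways of scaling the arrays (x axis). The core median lies below that of all genes in each, at -0.24 against -0.02 with quantile normalization and 0.31 against 0.47 on the deposited scale, so its sign depends on the scaling.

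In the base of the cap, Psmc5 stood apart from the other ATPases. Psmc5, a member of the ring that unfolds substrates, read 945, 1083, 1112 and 1179 at 8 weeks, and 456.5 to 674 at 1 week with a median of 505. Its lowest array at 8 weeks was above every array at 1 week, and the change was 0.97 ± 0.11 (limma adjusted p = 7.24e-05). It passed in 25 of 25 alternatives, from 0.75 to 1.5, and without the 4 arrays that oppose their label at 0.94 (limma adjusted p = 0.00443). A single probe set reads this gene, so no other can be set beside it.

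The other 5 ATPases did not pass. Psmc1 came closest, at 518 ± 28.4 at 8 weeks and 428 ± 55.3 at 1 week (0.27 ± 0.10, limma adjusted p = 0.0523). The probe sets of Psmc4 differed in direction. Its brightest was at -0.18 ± 0.09 and a dimmer one at 0.63 ± 0.28 (limma adjusted p = 0.0931), and neither passed. Psmc6 read 669.7 ± 64.3 at 8 weeks and 687 ± 45.8 at 1 week in its brightest probe set, and a dimmer one passed as lower (-0.32 ± 0.08), so its probe sets disagree on the call. The 3 base subunits that are not ATPases did not pass: Psmd1, the ubiquitin receptor Psmd4 (0.03 ± 0.08) and the scaffold Psmd2. Psmd2 averaged 1146 ± 70.2 at 8 weeks and 1273 ± 36.0 at 1 week without overlap, yet missed the threshold (-0.15 ± 0.07, limma adjusted p = 0.0897).

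In the lid 2 of 8 subunits fell, a share of 25% beside the 24.0% of all genes, and 0 without normalization. Psmd13, a structural lid subunit, read 240.3, 242, 298 and 276 at 8 weeks, and 384 to 520.1 at 1 week with a median of 427. The ages did not overlap, and its change of -0.66 ± 0.09 (limma adjusted p = 2.24e-04) was matched in direction by its other measured probe set (-0.39 ± 0.08). Psmd6 averaged 808 ± 23.4 at 8 weeks and 990.4 ± 83.2 at 1 week (-0.28 ± 0.08), with a dimmer probe set at -0.07 ± 0.13 that did not pass. It lost the call without replicate 1 labelled female at 8 weeks (limma adjusted p = 0.0599) or replicate 2 labelled male at 8 weeks (0.0548).

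Psmd14, the enzyme that removes ubiquitin at the lid, averaged 1163 ± 46.9 at 8 weeks and 1308 ± 82.7 at 1 week. Its ages did not overlap but it did not pass (-0.16 ± 0.07, limma adjusted p = 0.0765). Psmd3 read 607 ± 38.9 at 8 weeks and 590.4 ± 59.9 at 1 week, and Psmd7, Psmd8, Psmd11 and Psmd12 likewise did not pass, with changes from -0.14 to 0.13. Psmd11 had 4 probe sets past the filter, and 0 passed in either direction.

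Of the chaperones that build the core, 2 of 4 fell on the normalized scale (24.0% of all genes), and neither passed without normalization, where Psmg4 was at -0.19 and Psmg3 at 0.09. Psmg3 and Psmg4 form a pair that helps assemble the alpha ring, and both were lower, while Psmg1 and Psmg2, the partners of the other pair, did not pass. Psmg4 read 117, 123, 136 and 132 at 8 weeks, and 185 to 233 at 1 week with a median of 222. Its ages were apart, with a change of -0.66 ± 0.08 (limma adjusted p = 9.57e-05). Psmg3 averaged 137 ± 16.4 at 8 weeks and 187 ± 31.0 at 1 week (-0.39 ± 0.10, limma adjusted p = 0.00822). Its highest array at 8 weeks, 157.1, lay just above replicates 1 and 3 labelled female at 1 week, 156.9 and 156.4. With spike-in scaling Psmg3 did not pass (-0.19, limma adjusted p = 0.256).

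Of the chaperones that build the base, Psmd9 fell and Psmd5 and Psmd10 did not pass. Psmd9 averaged 132 ± 7.68 at 8 weeks and 173 ± 13.6 at 1 week without overlap. Its 2 probe sets had changes of -0.33 ± 0.08 and -0.34 ± 0.09. Psmd5 had 361 ± 19.9 at 8 weeks and 369 ± 17.8 at 1 week.

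Activators are caps other than the ATPase-bearing one, and all 3 measured changed, as did 45.9% of all genes. The activator gene Psme2 had no probe set with a single symbol and was not measured. Psme1, the alpha chain of the interferon-inducible activator, read 283, 355, 352 and 255 at 8 weeks, and 681 to 772 at 1 week with a median of 762.5. The 2 ages were far apart and the change was -1.21 ± 0.10 (limma adjusted p = 1.05e-05), the 135th lowest of 8148 genes. It was the only member to change by at least 1 on the log2 scale, as 5.83% of all genes did with an adjusted p under 0.05. A single probe set reads Psme1. It passed as lower in 25 of 25 alternatives, from -1.31 to -0.68. On the deposited scale its highest array at 8 weeks, 457, was above its lowest at 1 week, 440.5, in the dimmest array of all. H2-D1, B2m and 7 of 9 measured microglia markers were higher at 8 weeks. The other 4 of 6 measured interferon and antigen presentation genes and 2 microglia markers did not pass. A link of any of these to Psme1 was not tested.

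Psme3, the activator of nuclear proteasomes, read 301, 299, 372 and 377 at 8 weeks, and 172 to 222 at 1 week with a median of 201. Its ages did not overlap. It rose by 0.70 ± 0.08 (limma adjusted p = 8.54e-05), and its other measured probe set by 0.52 ± 0.11. It was higher in 25 of 25 alternatives, from 0.46 to 1.20. Psme4, another nuclear activator, known in mice for its part in the removal of histones during sperm maturation, read 241, 215, 263 and 269 at 8 weeks. At 1 week it ran from 294 through a median of 334 to 407, above all arrays at 8 weeks. Psme4 fell by 0.42 ± 0.11 on the log2 scale (limma adjusted p = 0.00792), and 3 of 3 probe sets passed as lower, but without the 4 arrays that oppose their label its adjusted p was 0.133. Psmf1, which inhibits the core in vitro, did not pass (-0.20 ± 0.11), with 222 ± 15.7 at 8 weeks against 262 ± 46.4 at 1 week.

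**Figure D5:**
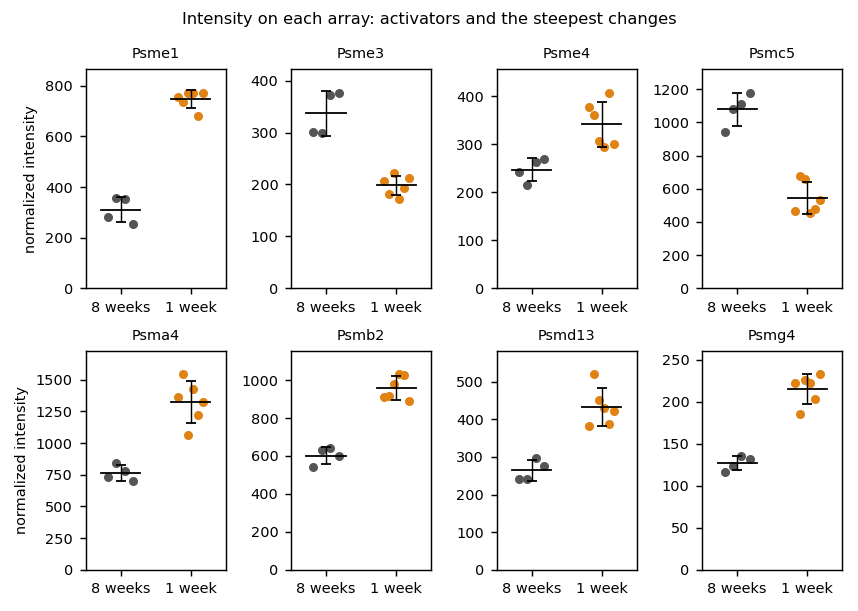
Quantile-normalized intensity (y axis, linear, from 0) on each of 4 arrays at 8 weeks (left) and 6 at 1 week (right) for the activators Psme1, Psme3 and Psme4, the cap subunits Psmc5 and Psmd13, the core subunits Psma4 and Psmb2 and the chaperone Psmg4. Lines and bars are the mean and SD. The ages do not overlap in any of the 8 genes; Psme3 and Psmc5 are higher at 8 weeks and the others lower, with the sign of Psme4 alone turning on the deposited scale, to 0.09.

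Genes that work with the proteasome without the prefix went both ways, 6 of 14 measured rising and 3 falling, with a median of 0.19. Among all genes 21.9% rose and 24.0% fell. Nfe2l1, the transcription factor that mammalian cells use to raise proteasome genes when the proteasome is blocked, averaged 1041 ± 45.0 at 8 weeks and 624 ± 27.7 at 1 week (0.72 ± 0.07, limma adjusted p = 1.78e-05). The related factor Nfe2l2 rose by 0.36 ± 0.07. Uchl5, a deubiquitinase of the cap, averaged 467 ± 48.6 at 8 weeks and 284 ± 30.8 at 1 week (0.67 ± 0.10). Pomp, the chaperone that matures the core, rose by 0.30 ± 0.07. Vcp, an ATPase that extracts ubiquitin-tagged proteins, averaged 1952 ± 116 at 8 weeks and 2674 ± 129 at 1 week (-0.45 ± 0.08). The shuttle Rad23b and the adaptor Ecpas also fell, by 0.42 and 0.33 on the log2 scale. Markers of dividing cells fell in 4 of 4 measured members (24.0% of all genes). Their summed intensity over 5 was 508 to 597 at 8 weeks and 1434 to 2178 at 1 week. Mki67 among them was under the filter, and none was at 0 at 1 week or 8 weeks. Their part in the lower core values was not tested, nor that of the oligodendrocyte markers.

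Proteasome promoters are known for antioxidant response elements, which Nfe2l1 and Nfe2l2 bind. Of the 48 symbols, 40 had a promoter in the RefSeq table (GRCm38.p6), 43 promoters in all. The 250 bases before the start were searched on both strands for TGACNNNGC, the core of that element. It was found in 5 of 43 member promoters (11.6%) and in 10.2% of all 32851 promoters. The carriers were Psmb5, Psmb6 and Psmd9, which fell, and Psmc6 and Psmd12, which did not pass. CCAAT was found in 34.9% of member promoters and 33.8% of all, and the interferon motif, GAAA repeated after a gap of 2 bases, in 3 of 43 (6.98%) and 2.98% of all. Matches to different motifs did not overlap in member promoters. The interferon motif was in Psmb3, Psmd4 and Psmd9 and in 0 of the 3 immunoproteasome promoters. The 120 bases before the start are given for the 3 members that fell with a match to TGACNNNGC, in capitals, and for the steepest fall and rise, Psme1 and Psmc5, which have no match to any of the 3 motifs in that window. They lie at chr14:54617996-54618115 on the minus strand for Psmb5, and on the plus strand at chr11:70525237-70525356 for Psmb6, chr5:123228070-123228189 for Psmd9, chr14:55578374-55578493 for Psme1 and chr11:106256065-106256184 for Psmc5.
Psmb5: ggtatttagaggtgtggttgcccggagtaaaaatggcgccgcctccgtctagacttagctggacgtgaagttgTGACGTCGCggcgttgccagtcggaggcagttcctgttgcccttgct
Psmb6: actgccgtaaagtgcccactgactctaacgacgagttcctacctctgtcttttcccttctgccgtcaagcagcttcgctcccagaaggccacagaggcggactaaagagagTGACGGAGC
Psmd9: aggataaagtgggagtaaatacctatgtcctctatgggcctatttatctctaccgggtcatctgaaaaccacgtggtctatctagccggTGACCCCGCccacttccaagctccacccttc
Psme1: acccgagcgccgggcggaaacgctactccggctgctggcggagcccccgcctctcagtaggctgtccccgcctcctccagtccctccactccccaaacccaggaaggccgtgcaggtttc
Psmc5: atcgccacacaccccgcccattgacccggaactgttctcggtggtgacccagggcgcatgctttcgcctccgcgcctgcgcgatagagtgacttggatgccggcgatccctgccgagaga
A match describes the letters and is not a binding site, and the shares in members and in all promoters lay close together for the first 2 motifs.

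Several members are read by more than 1 probe set, 21 of 48 symbols, and by more than 1 past the filter in 18. In 0 of these were probe sets called in opposite directions. In 3 some passed and others did not: Psma6, Psmc6 and Psmd6. Over all 67 member probe sets past the filter, 21 were lower and 3 higher, against 24.0% and 22.1% of all probe sets.

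For labelled sex, male minus female over both ages, 0 of 44 members passed with limma (0% of all genes passed), and 1 had an unadjusted p under 0.05, Psmg3, against 2.80% of all genes. For the interaction of age and label 0 passed (0% of all genes), and 2 had an unadjusted p under 0.05, Psmd10 and Psme3, against 4.98% of all. Because labels and sex-linked transcripts disagree at 1 week, these counts say nothing on the sex of the brains.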

How the data were processed

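Brain RNA was hybridised to 10 Affymetrix MOE430A arrays, 1 per sample, grouped by the age and sex in the titles. The deposited intensity values were 1 per probe set on a linear scale; how the authors summarised the probes is not given in the sources used here. From the 22690 rows, 64 array controls were left out. Values were quantile-normalized, and log2 was taken after adding a pseudocount of 24.2, the 20th percentile of the deposited table. The filter kept the 13576 probe sets with a mean log2 at or above the 40th percentile. Symbols came from the array annotation; probe sets with several symbols were not named.

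Linear models used R 4.3.3 and limma 3.58.1 (lmFit, eBayes), 1 coefficient per group of age and label, with p-values two-sided and adjusted over all probe sets. Single values per array were compared with exact permutation tests. No set test was made. The number of arrays limits the precision. The pipeline was tested on simulated data.

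Members, roles and gene lists were chosen with earlier results of these data known. Named in full were immunoproteasome subunits, their partners, activators and the inhibitor, and in each other role up to 4 passing members, 2 of the opposite direction and the one with the highest adjusted p. Psmc1, Psmc4, Psmd2, Psmd14 and probe sets that disagree were added after their values were seen. From related lists, up to 3 members each way were named, with Pomp, Tap2 and Ifit3 added likewise. One further gene list was not analysed here. Alternatives were other pseudocounts, scalings and filters, a mean over probe sets, leaving out each array, blocking on replicate number, array weights, an intensity trend, age alone, the same without the 4 arrays that oppose their label, and each label alone.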

Additional observations from a re-analysis of the deposited data

Results flagged for a closer look

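Within an age, 6 of 92 sets of arrays had 1 array apart from the rest by Dixon's test, and chance gives about 1 in 20. At 8 weeks Psmc1 read 475 in replicate 1 labelled female, with the others between 531 and 533, and Psmd14 read 1094 in replicate 2 labelled female, with the others between 1176 and 1193. At 1 week Psma7 read 926 and Psmd1 read 885 in replicate 1 labelled male, above the others at 739 to 802 and 726 to 773, and this is the dimmest array as deposited. Psma3 read 1491 in replicate 2 labelled female at 1 week, above the others at 1317 to 1375. Psme1 read 681 in replicate 2 labelled male at 1 week, below the others at 738 to 772.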

How the results depend on the processing

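Of 648 values of named genes under 25 alternatives, 561 kept direction and call, 40 lost the call, 5 gained it and 42 turned, 28 of them in genes that passed under neither setting. Without normalization, which put the median gene at 0.47, 15 turned: Psma1 0.04, Psma3 0.30, Psma7 0.12, Psmb3 0.44, Psmb5 0.28, Psmb6 0.23, Psmb7 0.33, Psmc6 0.52, Psmd5 0.50, Psmd6 0.28, Psmd9 0.13, Psme4 0.09, Psmf1 0.30, Psmg1 0.42 and Psmg3 0.09. With spike-in scaling 6 turned, Psmb3 to 0.15, Psmb7 to 0.02, Psmc6 to 0.22, Psmd5 to 0.21, Psmf1 to 0.01 and Psmg1 to 0.14, and with median scaling 2, Psmc6 and Psmd5, each to 0.01. Small values that did not pass also turned: with an array left out Psma5 ran from -0.10 to 0.11, Psmc6 from -0.10 to 0.03, Psmd4 from -0.03 to 0.10 and Psmd5 from -0.07 to 0.02. Psma5 was at -0.01 and Psmb3 at 0.01 with the replicate block, and Psma5 at -0.07 with array weights and -0.03 with a mean over probe sets. Psmc6 was at 0.05 and Psmg1 at 0.03 without the 4 arrays that oppose their label, and both at 0.05 in arrays labelled male. In arrays labelled female Psma5 and Psmd4 were at -0.03, Psmd5 at 0.01 and Psmd3 at -0.10. Without normalization 1 member was lower and 28 higher (core 0 and 7, cap 0 and 14), beside 365 lower and 5260 higher of 8148 genes. Scaled to spike-in controls, with a median of 0.19, 5 members were lower and 7 higher (core 2 and 1, cap 1 and 4). Of 8150 genes, 694 were then lower and 2481 higher. With median scaling the cap had 1 lower and 2 higher, with an intensity trend 4 and 2. Cap subunits higher were 2 with a pseudocount of 100, with the filter at the 60th percentile and with age alone, and 1 cap subunit was lower with a mean over probe sets. Without the 4 arrays that oppose their label, 8 members were lower, of the cap 1 lower and 2 higher, beside 1155 of 8143 genes lower. In arrays labelled female 9 members were lower, 1 of them in the cap, and in those labelled male 7, with 4 core and 1 cap. Among all genes 1138 of 8140 and 1208 of 8167 were lower in these. For these settings after the scalings, the cause was not tested, but the label-wise ones and the one without the 4 arrays hold fewer arrays. Leaving out each array gave 11 to 15 members lower and 2 to 3 higher, core 5 to 8 lower, cap 1 to 2 lower and 1 to 2 higher; 1 cap subunit was lower without replicate 1 labelled female or 2 labelled male at 8 weeks, and 2 were higher without replicate 2 of either label at 1 week. For Psmb8 over Psmb5 the change was 0.63 to 0.91 with an array left out, 0.39 as deposited, and 0.91, 0.51 and 1.06 without the 4 arrays and in arrays labelled female and male. For Psmb10 over Psmb7 it was 0.27 to 0.44 with an array left out (adjusted p = 0.0357 by exact permutation without replicate 2 labelled female at 8 weeks) and passed with median scaling (0.45) and spike-in scaling (0.43). Psmb9 over Psmb6 ranged from 0.03 to 0.32 with an array left out, and was -0.10 as deposited and -0.15 in arrays labelled male. With the replicate number as a block, 15 members were lower and 2 higher. Whether the numbers pair the samples cannot be settled here. Same-numbered deviations correlated weakly, at -0.03 to 0.19, yet 6 of 6 arrays at 1 week correlated best with their own number. These 6 are the same pairs of arrays labelled female and male, read from each side. Intensity near background limits Psmb8 and Psmb9.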
